A study of Mus musculus with 6 samples.

Results

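The sirtuins are a family of deacylases with 7 genes in the mouse, Sirt1 to Sirt7. The members were taken as the rows of the gene count table whose gene name equals one of these symbols, which gave 7 of the 54532 genes in the table. RNA sequencing was carried out on 6 samples of MLE12 cells, an immortalized mouse lung alveolar epithelial line that the labels give as C57BL/6J. The 3 control samples (Ctrl shRNA) received a control lentivirus, which the sources used here call both an empty vector and a control shRNA. The 3 knockdown samples received an Idh3α shRNA lentivirus and an Slc25a1 shRNA lentivirus together. Each virus was used at a multiplicity of infection of 50, and whether the controls received the same total amount of virus as the knockdown samples is not given in the sources used here. The virus stayed on for 16 h in both groups, and 80 h of culture in new medium followed the wash. Idh3a encodes the catalytic subunit of the NAD-dependent isocitrate dehydrogenase of mitochondria, and Slc25a1 encodes the carrier that exports citrate from them. The labels name 1 cell line and do not say whether replicates were separate cultures, so the p-values measure the spread between these samples, which may be technical.

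Sirtuins remove acetyl and other acyl groups from lysines of proteins and consume NAD+ in each reaction, which ties their activity to the NAD+ supply of the cell. SIRT1 deacetylates p53, FOXO factors and the p65 subunit of NF-κB in the nucleus, SIRT6 acts on histone H3 in chromatin and SIRT7 is enriched in the nucleolus. SIRT2 is mainly cytosolic and deacetylates tubulin. SIRT3 is the main deacetylase of the mitochondrial matrix, SIRT4 acts on glutamate dehydrogenase and the pyruvate dehydrogenase complex there, and SIRT5 removes succinyl, malonyl and glutaryl groups. The mRNA level of a sirtuin gene does not report the activity of its protein, which was not measured by these files.

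The total count ranged from 27273502 to 28535653 per sample. Ctrl shRNA replicate 2 stood apart from the other libraries. At least 1 count was found for 16681 genes there and for 19902 to 23147 genes elsewhere. The top 100 genes held 27.2% of its counts and 12.5% to 12.9% in the rest, and the mitochondrial genome 6.49% beside 1.57% to 1.80%. Therefore, the comparison of the sirtuin genes is given with and without this library. In CPM, the counts scaled to a common effective library size, Slc25a1 was 103, 98.7 and 108 in Ctrl shRNA replicates 1, 2 and 3 and 68.9, 69.6 and 63.0 in the knockdown samples. Idh3a was 79.8, 137 and 93.0 across the controls and 58.5, 57.9 and 55.5 after knockdown. Both targeted genes were lower in every knockdown sample than in any control, with adjusted p of 0.104 for Slc25a1 and 0.254 for Idh3a in edgeR over all 6 samples, and 0.00649 and 0.0142 without Ctrl shRNA replicate 2. The epithelial markers Krt8 (232 to 300 CPM), Nkx2-1 (277 to 343 CPM) and Abca3 (110 to 141 CPM) were present and Epcam was low (2.39 to 4.01 CPM), whereas Krt18 had 0 to 16 counts per library, Lamp3 3 to 11, and the surfactant genes Sftpa1 and Sftpd at most 2. Of the 5 leukocyte markers, Ptprc, Adgre1 and Itgam were at 0 counts in every library, and the summed level of the list was 1.84 to 1.92 CPM in the controls and 2.41 to 2.73 CPM in the knockdown samples, nearly all from Cd68. The fibroblast list summed to 317 to 376 CPM in 5 libraries and to 1233 CPM in Ctrl shRNA replicate 2, nearly all from Dcn, with Col3a1 at 0 counts in all 6. The alveolar type 1 markers summed to 839 to 909 CPM in the controls and 680 to 743 CPM in the knockdown samples, and the type 2 markers to 182 to 208 CPM and 163 to 169 CPM. Within these lists, Sftpc had a log2 fold change of -1.07 and Ager one of -0.38 (edgeR adjusted p of 0.315 and 0.334), and -0.65 and -0.49 without Ctrl shRNA replicate 2 (adjusted p of 0.0438 and 0.0223), while Abca3 was at 0.06 and -0.04. The part of these differences between libraries in the sirtuin values was not tested.

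All 7 sirtuin genes were expressed in MLE12 cells, and the order of the group means of the deposited FPKM was the same in the controls and the knockdown samples. Without Ctrl shRNA replicate 2, the control mean of Sirt4 (8.10 FPKM) was above that of Sirt6 (7.98 FPKM), and the rest of the order was as before. Per gene length, Sirt2 was the highest, with an FPKM of 21.7 to 24.8 in the controls and 20.4 to 23.6 in the knockdown samples. Sirt7 followed at 8.69 to 11.6 FPKM over the 6 samples, Sirt6 at 6.13 to 8.92, Sirt4 at 5.53 to 8.69 and Sirt1 at 2.82 to 3.80. Sirt3, at 1.14 to 1.78 FPKM, and Sirt5, at 0.684 to 1.51 FPKM, were the lowest. The ranges of Sirt7 and Sirt6, of Sirt6 and Sirt4, and of Sirt3 and Sirt5 overlapped, and the other neighbours in this order were separate. Within single libraries, Sirt7 was above Sirt6 and Sirt3 was above Sirt5 in 6 of 6, and Sirt6 was above Sirt4 in 5 of 6, with Ctrl shRNA replicate 1 as the exception. The order of the mean TPM over all samples, computed from the counts and the gene lengths, was the same as that of the FPKM, with and without Ctrl shRNA replicate 2. The family summed to a TPM of 180 to 198 in 5 libraries and to 70.4 in Ctrl shRNA replicate 2, so TPM was compared only as shares within a library.

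**Figure D1:**
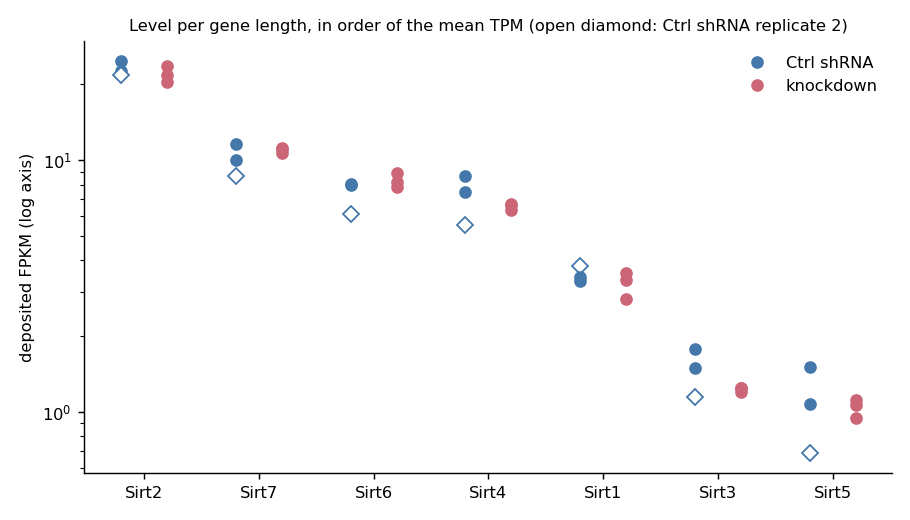
Deposited FPKM of the 7 sirtuin genes on a log axis, ordered by mean TPM, with 1 point per sample (blue, Ctrl shRNA; red, knockdown; open diamond, Ctrl shRNA replicate 2). Sirt2 lies above 20 FPKM in all 6 samples, and the values of Sirt3 and Sirt5 lie below 2 FPKM.

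In edgeR, no sirtuin gene passed an adjusted p under 0.05 in the knockdown against the control samples. In the quasi-likelihood test over all 6 samples, 0 of 7 members were called, beside 0.0653% of the 15307 genes that entered it. Without adjustment, a p under 0.05 was reached by 0 of 7 members and 14.1% of all genes, and DESeq2 called 0 of 7 members beside 2.56% of the genes it gave an adjusted p. The control and knockdown values overlapped for all 7 members, whereas the groups did not overlap for 25.4% of the genes tested. The median log2 fold change was -0.07 over the members and -0.01 over all genes. The median half-width of the 95% interval over all genes was 0.41 log2 units, which limits the size of a change that could be seen. In RNA from whole cultures, fewer cells that express a gene and less of its RNA per cell cannot be told apart.

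**Figure D2:**
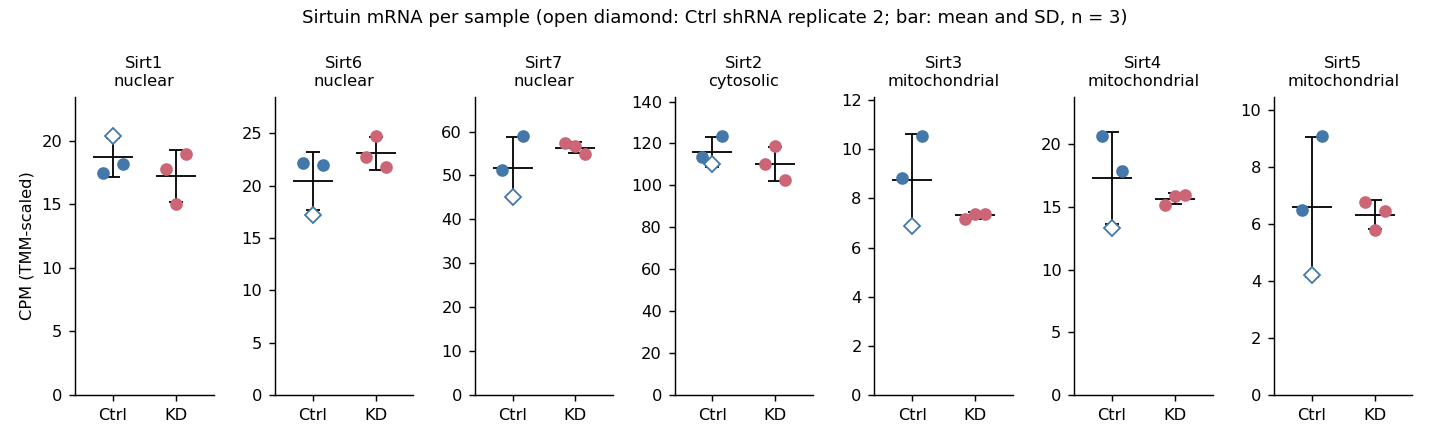
CPM scaled by TMM factors for each sirtuin gene in the 3 Ctrl shRNA (blue) and 3 knockdown (KD, red) samples, with the mean and SD of each group (n = 3) and each vertical axis starting at 0. The open diamond is Ctrl shRNA replicate 2, the lowest of the 6 samples for Sirt3, Sirt4, Sirt5, Sirt6 and Sirt7 and the highest for Sirt1.

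Of the nuclear members, Sirt1 measured 17.5, 20.4 and 18.2 CPM across Ctrl shRNA replicates 1, 2 and 3, against 17.7, 15.0 and 18.9 CPM across knockdown replicates 1, 2 and 3. Its highest value came from Ctrl shRNA replicate 2, and the other 2 controls lay among the knockdown values. The log2 fold change was -0.12 ± 0.13 (SE; 95% interval -0.42 to 0.19), with an adjusted p of 0.646 in edgeR. Sirt6, which acts on chromatin, measured 22.2, 17.2 and 21.9 CPM across the controls, against 22.7, 24.8 and 21.7 CPM after knockdown. The low control was again replicate 2, and without it the groups differed by 0.06 on the log2 scale. With all samples the log2 fold change of Sirt6 was 0.17 ± 0.13 (SE; 95% interval -0.14 to 0.48; adjusted p = 0.502, edgeR). Sirt7, the nucleolar member, measured 51.2, 45.1 and 59.1 CPM across the controls, against 57.3, 56.8 and 54.9 CPM after knockdown. The 3 knockdown values of Sirt7 fell inside the range of the controls, and the log2 fold change was 0.12 ± 0.11 (SE; 95% interval -0.15 to 0.39; adjusted p = 0.585, edgeR). A two-sided exact permutation test over the 6 samples gave p = 0.5 for Sirt1, 0.3 for Sirt6 and 0.4 for Sirt7, and 3 samples against 3 cannot give a p below 0.1.

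The cytosolic member, Sirt2, was the most abundant sirtuin and the one with the narrowest interval. It measured 113, 110 and 124 CPM across the controls, against 110, 119 and 102 CPM after knockdown. The ranges of the groups overlapped over most of their length. The log2 fold change of Sirt2 was -0.07 ± 0.09 (SE; 95% interval -0.28 to 0.14), with an adjusted p of 0.697 in edgeR and an exact permutation p of 0.4. Its interval corresponds to a fold change between 0.822 and 1.10. Without Ctrl shRNA replicate 2 the log2 fold change was -0.11, with an adjusted p of 0.459.

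The 3 mitochondrial members had negative log2 fold changes, none of which passed the test over all samples. Sirt3 measured 8.85, 6.88 and 10.6 CPM across the controls, against 7.16, 7.38 and 7.38 CPM after knockdown. Controls 1 and 3 were above all knockdown samples and control 2 was below them. The log2 fold change of Sirt3 was -0.26 ± 0.18 (SE; 95% interval -0.70 to 0.17; adjusted p = 0.465, edgeR; exact permutation p = 0.4). Sirt4 measured 20.7, 13.4 and 17.8 CPM across the controls, against 15.2, 15.9 and 16.0 CPM after knockdown, the same arrangement as for Sirt3. Its log2 fold change was -0.15 ± 0.17 (SE; 95% interval -0.55 to 0.26; adjusted p = 0.672, edgeR; exact permutation p = 0.7). Sirt5, the least abundant member, measured 6.49, 4.20 and 9.10 CPM across the controls, against 6.75, 5.77 and 6.44 CPM after knockdown. The control values of Sirt5 lay on both sides of the knockdown values. Its log2 fold change was -0.07 ± 0.28 (SE; 95% interval -0.75 to 0.62; adjusted p = 0.919, edgeR; exact permutation p = 1). These values came from 83 to 261 counts per library for Sirt5 and 136 to 303 for Sirt3, against 2177 to 3598 for Sirt2.

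Without Ctrl shRNA replicate 2, the mitochondrial members moved further from 0 and the nuclear members moved toward it. The log2 fold change of Sirt3 was -0.42 (95% interval -0.71 to -0.13; adjusted p = 0.140, edgeR). That of Sirt4 was -0.31 (95% interval -0.54 to -0.08; adjusted p = 0.161, edgeR). For both genes the 2 remaining controls were above the 3 knockdown samples, as for 17.5% of the genes tested. Sirt5 had the same log2 fold change as Sirt4, -0.31, with a wider interval (-0.70 to 0.08) and an adjusted p of 0.345 in edgeR. Sirt1, Sirt6 and Sirt7 were at -0.06, 0.06 and 0.02, with edgeR adjusted p of 0.816, 0.777 and 0.906. In this fit 0 of 7 members passed the adjusted threshold, beside 1.79% of all genes, and DESeq2 without this library called 0 of 7 beside 6.70% of the genes it gave an adjusted p. The unadjusted p was under 0.05 with a lower level in the knockdown for 2 of 7 members, Sirt3 and Sirt4, beside 10.3% of all genes. Limma with sample quality weights, which gave Ctrl shRNA replicate 2 a weight of 0.101, was the only one of 17 settings that called a member, while 5 of the 17 called 0 of all genes tested and 2 called 1. There Sirt3 fell by 0.48 on the log2 scale (adjusted p = 0.0244), which made 1 of 7 members lower beside 6.34% of all genes.

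**Figure D3:**
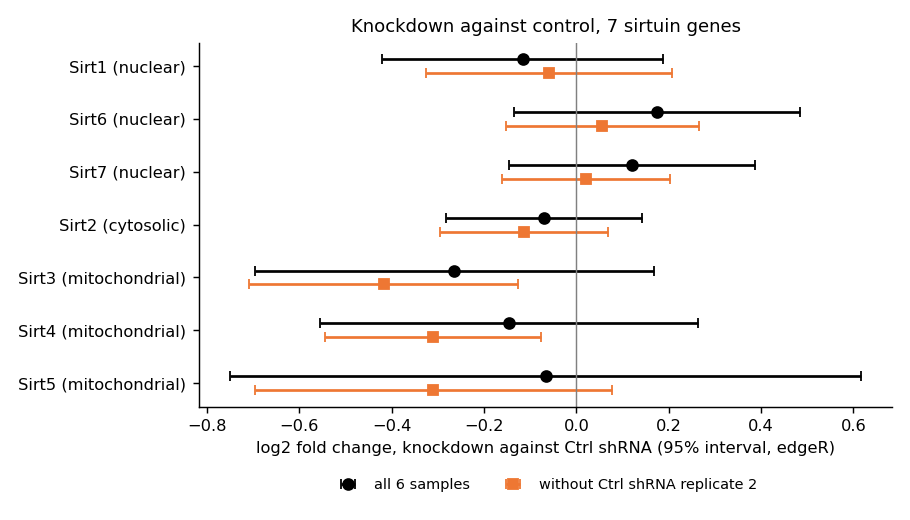
Log2 fold change of each sirtuin gene, knockdown against Ctrl shRNA, from edgeR with all 6 samples (black circles) and without Ctrl shRNA replicate 2 (orange squares), with 95% intervals. With all samples every interval crosses 0, and without that control the intervals of Sirt3 and Sirt4 lie below 0 before adjustment over all genes.

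Ctrl shRNA replicate 2 differed from the mean of the other 2 controls in most of the family. The difference in log2 CPM was -0.86 for Sirt5, -0.52 for Sirt4 and -0.49 for Sirt3. It was -0.36 for Sirt6, -0.29 for Sirt7, -0.10 for Sirt2 and 0.19 for Sirt1, beside a median absolute difference of 0.35 over all genes tested. In all, 6 of 7 members were lower in this library than in both other controls, as were 46.6% of the genes tested. The coefficient of variation was larger in the controls than in the knockdown samples for Sirt3 (21.0% against 1.79%), Sirt4 (21.4% against 2.84%), Sirt5 (37.1% against 7.97%), Sirt6 (13.7% against 6.72%) and Sirt7 (13.5% against 2.27%). Sirt1 (8.15% against 11.8%) and Sirt2 (6.11% against 7.36%) had the larger value in the knockdown samples. Over the 2 controls other than replicate 2, the coefficient was 12.5% for Sirt3, 10.5% for Sirt4, 23.6% for Sirt5 and 10.2% for Sirt7, and for Sirt6 it was 0.846%, below that of the knockdown samples. It was 2.86% for Sirt1 and 6.13% for Sirt2. The difference in spread was not tested.

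The nuclear members took a larger share of the sirtuin mRNA in every knockdown sample than in any control. Sirt1, Sirt6 and Sirt7 together made up 38.6%, 39.0% and 39.2% of the family's summed TPM in Ctrl shRNA replicates 1, 2 and 3 and 42.6%, 41.3% and 42.9% in knockdown replicates 1, 2 and 3. The mean was 38.9% ± 0.326 (SD, n = 3) in the controls and 42.3% ± 0.870 (SD, n = 3) in the knockdown samples. This share does not depend on the scaling between libraries. Ctrl shRNA replicate 2 lay with the other controls in the summed nuclear share only. It had the highest Sirt1 share (7.96%) and the lowest Sirt6 share (12.9%) of the 6 samples. Within the nuclear members, Sirt6 (12.9% to 14.5% in the controls, 15.2% to 16.2% in the knockdown samples) and Sirt7 (18.1% to 19.8% and 20.0% to 21.0%) did not overlap between the groups, and Sirt1 did (5.88% to 7.96% and 5.11% to 6.93%). Groups of 3 and 3 did not overlap in log2 CPM for 25.4% of all genes, a value that is not on the scale of shares. The mitochondrial members took 20.4%, 15.4% and 18.4% in the controls and 16.3%, 16.0% and 17.5% in the knockdown samples. Those groups overlapped because of control 2, whose mitochondrial share was the lowest of the 6. Sirt2 took 41.0%, 45.5% and 42.3% in the controls and 41.1%, 42.8% and 39.6% in the knockdown samples. The ratio of nuclear to mitochondrial TPM was 1.89, 2.53 and 2.13 in the controls and 2.62, 2.59 and 2.46 in the knockdown samples. The median log2 fold change was 0.12 over the nuclear members, -0.07 for Sirt2 and -0.15 over the mitochondrial members, and 0.02, -0.11 and -0.31 without Ctrl shRNA replicate 2. Since the members are not replicates and were chosen with results known, no test was run on these shares and medians. The shares of the members sum to 100% within a library, so a higher share of one goes with a lower share of others.

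**Figure D4:**
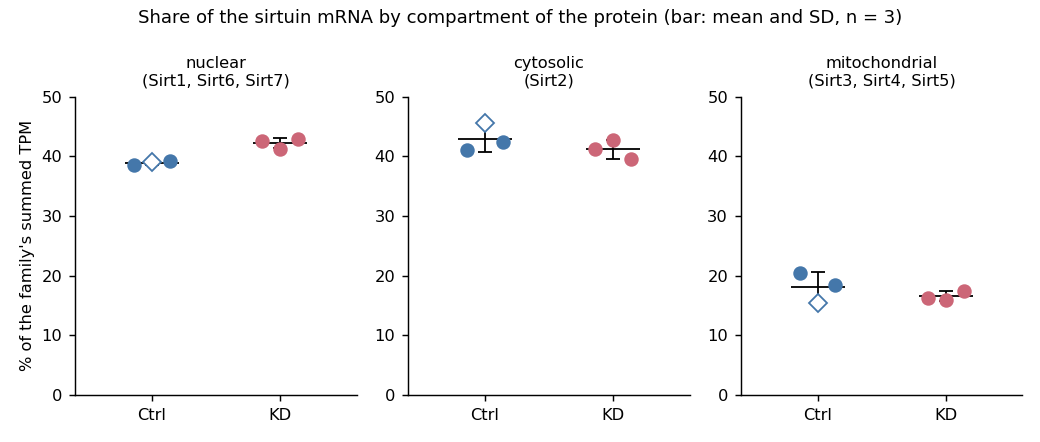
Share of the summed TPM of the 7 sirtuin genes held by nuclear, cytosolic and mitochondrial members in each sample (blue, Ctrl shRNA; red, knockdown, KD; open diamond, Ctrl shRNA replicate 2), with the mean and SD (n = 3). The nuclear share is 38.6% to 39.2% in the controls and 41.3% to 42.9% in the knockdown samples, and the other shares overlap.

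Several sirtuin genes share sequence with a neighbour, and whether counting used the strand is not given in the sources used here. Sirt3 (chr7:140863666-140882309, minus strand, mm10) overlaps exons of Psmd13, a proteasome subunit, by 342 bases and of Ric8a, a chaperone of G protein alpha subunits, by 418 bases, both on the opposite strand. Psmd13 had 2268 to 3198 counts and Ric8a 614 to 1388 counts per library, against 136 to 303 for Sirt3. Their log2 fold changes were -0.06 and 0.19, with edgeR adjusted p of 0.783 and 0.520. Sirt7 (chr11:120618372-120625240, minus strand) shares 124 exonic bases of the same strand with Mafg, a small MAF transcription factor. Mafg was higher in all 3 knockdown samples (272, 285 and 284 CPM) than in the controls (243, 186 and 221 CPM), with a log2 fold change of 0.37 and an adjusted p of 0.320 in edgeR. Sirt2 (chr7:28766735-28788661, plus strand) shares 42 exonic bases with Nfkbib on the opposite strand, which had 247 to 624 counts and a log2 fold change of 0.27 (adjusted p = 0.420, edgeR). Sirt1 (chr10:63319005-63381704, minus strand) overlaps the antisense gene Gm16145 and Sirt7 the microRNA gene Mir6936, both at 0 counts in every library. The part of shared reads in the values of Sirt2, Sirt3 and Sirt7 was not tested. Sirt4 (chr5:115478010-115484725), Sirt5 (chr13:43365496-43395203) and Sirt6 (chr10:81621785-81627797) overlap no other gene of the table.

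The sequences before the RefSeq transcription starts of the sirtuin genes were searched for short motifs. RefSeq promoters of GRCm38.p6 were found for 7 of 7 members, in 9 windows of 250 bases upstream of a start, and motifs were searched by exact letters on both strands. All 9 windows held annotated exon bases, from 15 in Sirt1 to 250 of 250 in both windows of Sirt3 and that of Sirt7. The Sirt1 window held the E-box CACGTG, bound by MYC and USF factors, which 6.02% of 32851 promoters hold, and was the only one of the 9 windows to do so. The 9 windows held 12 to 39 CpG, all above the median of 6 CpG over all promoters, with the most in Sirt1. The ETS letters CCGGAAG, in 6.91% of promoters, were in 3 windows, of Sirt3, Sirt6 and Sirt7. These stretches are shown because Sirt1 was the member with a negative correlation with each of the others across samples, Sirt6 was a member whose share did not overlap between the groups, and Sirt3 was the member called in 1 setting. The share of Sirt7 did not overlap either, and its ETS stretch is not shown. The capitals mark the E-boxes in Sirt1, with bases up to the nearest annotated exon, and the ETS letters, on either strand, in 30 bases each of Sirt3 and Sirt6. The Sirt1 stretch lies inside the span of Sirt1 in the table and not at its annotated end, the Sirt3 stretch lies in a window covered by exons of Psmd13, and the Sirt6 stretch lies inside the span of Sirt6 in the table, in a window with 231 exon bases of Sirt6.
Sirt1, chr10:63339051-63339285, minus strand: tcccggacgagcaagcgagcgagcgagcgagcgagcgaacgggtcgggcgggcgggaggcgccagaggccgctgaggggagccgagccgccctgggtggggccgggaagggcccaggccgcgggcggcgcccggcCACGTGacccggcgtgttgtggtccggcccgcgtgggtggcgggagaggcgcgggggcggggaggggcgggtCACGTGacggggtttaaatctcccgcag
Sirt3, chr7:140882376-140882405, minus strand, ETS: gtgctcgctcaCTTCCGGcaccgcgggcgc
Sirt6, chr10:81627583-81627612, minus strand, ETS: tcccttcaccaCTTCCGGcggaagcggcct

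A match of letters is a description of the sequence, and no binding was measured. The letters GGGCGG of Sp1, which 32.74% of promoters hold, were in 6 of the 9 windows, and CCAAT, in 33.85% of promoters, was in 3. The TATA box letters TATAAA and the cAMP response element TGACGTCA were in 0 of the 9.

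Across the 6 samples, 15 of the 21 pairs of sirtuin genes had a positive Pearson r of log2 CPM, and the 6 negative pairs all included Sirt1. The pairs Sirt6 and Sirt7 and Sirt5 and Sirt7 had the highest r, both 0.84, followed by Sirt3 and Sirt5 at 0.80 and Sirt3 and Sirt4 at 0.74. Sirt1 and Sirt6 had the lowest, -0.87. These values are descriptions over 6 points that share library scaling and in which Ctrl shRNA replicate 2 is an extreme point for 6 members. Of the protein-coding genes tested, the 2 with the most similar pattern to each member had r from 0.980 to 0.998. Among them were Pcgf5, a Polycomb subunit, and Nipa1 for Sirt1, and Lmx1b for Sirt2. Epdr1 and the spindle protein gene Psrc1 were nearest to Sirt3, the retinol dehydrogenase gene Rdh5 and Esyt2 to Sirt4, and the clathrin light chain gene Cltb and Nbl1 to Sirt5. Zbed3 and the coatomer gene Arcn1 were nearest to Sirt6, and Arhgap44 and Stk36 to Sirt7. Without Ctrl shRNA replicate 2, r was 0.974 to 0.996 for these pairs, but 0 of the 14 genes kept a place among the nearest 2.

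In edgeR, no gene that supplies the NAD+ of the sirtuin reaction was called. Of 15 genes of NAD synthesis and salvage, 9 were tested and 0 passed the adjusted threshold, with a median log2 fold change of -0.11 (-0.04 without Ctrl shRNA replicate 2). Nampt, the rate-limiting enzyme of salvage, measured 82.7, 127 and 90.9 CPM across the controls, against 94.1, 91.8 and 91.6 CPM after knockdown. Nmnat3, a mitochondrial enzyme of the last salvage step, measured 4.13, 2.58 and 3.45 CPM across the controls, against 5.01, 4.65 and 5.23 CPM after knockdown (log2 fold change 0.54, adjusted p = 0.352, edgeR). Naprt, which starts salvage from nicotinic acid, was at 2.39, 1.87 and 2.44 CPM and at 1.24, 1.65 and 1.69 CPM in the same order (log2 fold change -0.55, adjusted p = 0.357, edgeR). Of the 9 genes, 1 (Nmnat3) was higher in every knockdown sample than in any control and 3 (Naprt, Nmnat1 and Afmid) were lower, beside the 25.4% of all genes whose groups did not overlap. Limma with sample quality weights called Nmnat3 and Naprt (adjusted p of 0.0412 and 0.0411), beside 15.0% of all genes. Nampt overlapped through Ctrl shRNA replicate 2, and without that library its log2 fold change turned from -0.11 to 0.08 (adjusted p = 0.532, edgeR). Of 13 genes of NAD use, phosphorylation and transport, 10 were tested and 0 passed, with a median of 0.01 (-0.03 without Ctrl shRNA replicate 2). The NAD hydrolase gene Sarm1 had a log2 fold change of 0.42 (adjusted p = 0.346) and the NAD kinase gene Nadk one of 0.34 (adjusted p = 0.347) in edgeR. Limma with sample quality weights called Sarm1 and Parp1 higher (adjusted p of 0.0413 and 0.0458), beside 15.0% of all genes. Of the 10, 3 (Sarm1, Nadk and Parp1) were higher in every knockdown sample than in any control and 3 (Parp2, Nadk2 and Nnt) were lower, beside 25.4% of all genes without overlap.

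Genes for regulators and substrates of the sirtuins gave 1 call in edgeR, and there only without Ctrl shRNA replicate 2. All 7 regulator genes were tested and 0 passed, with the smallest unadjusted p for E2f1, an activator of Sirt1 transcription (log2 fold change -0.17, adjusted p = 0.357, edgeR), and Usp22, a deubiquitinase that stabilizes SIRT1 (0.17, adjusted p = 0.365, edgeR). Of the substrates of nuclear and cytosolic sirtuins, 15 were tested and 0 passed over all samples, with a median of 0.04 (0.11 without Ctrl shRNA replicate 2). At an unadjusted p under 0.05, 4 of the 15 were higher, beside 7.47% of all genes. Trp53, which encodes the SIRT1 substrate p53, measured 142, 131 and 155 CPM across the controls, against 207, 239 and 190 CPM after knockdown. The groups did not overlap, and the log2 fold change was 0.57 (adjusted p = 0.211, edgeR). Of the 15 genes of the list, 7 did not overlap (6 higher and 1 lower after knockdown), beside 25.4% of all genes. Without Ctrl shRNA replicate 2, Trp53 rose by 0.50 on the log2 scale with an adjusted p of 0.0497 in edgeR, just under the threshold, and DESeq2 over all samples gave an adjusted p of 0.0156. Of the substrates of mitochondrial sirtuins, 14 of 18 were tested and 0 passed with or without that library, with a median of -0.03 (-0.06 without it). With all samples, the members of that list with the smallest p were Opa1, a fusion protein of the inner mitochondrial membrane (0.14, adjusted p = 0.370, edgeR), and Dlat, a subunit of the pyruvate dehydrogenase complex (-0.12, adjusted p = 0.409, edgeR). The smallest p without Ctrl shRNA replicate 2 was that of Ppif, which encodes cyclophilin D and was named after its values were seen (0.46, adjusted p = 0.0856, edgeR).

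The other enzymes of lysine acetylation were compared with the sirtuins in the same fit. Of the zinc-dependent deacetylases, 10 of 11 were tested and 0 passed in edgeR, with a median log2 fold change of 0.05. Hdac5 measured 339, 285 and 316 CPM across the controls, against 389, 396 and 377 CPM after knockdown (0.31, adjusted p = 0.327, edgeR), and Hdac4 had a log2 fold change of 0.25 (adjusted p = 0.360, edgeR). Limma with sample quality weights called Hdac5 and Hdac4 higher (adjusted p of 0.0126 and 0.0413), beside 15.0% of all genes. DESeq2 without Ctrl shRNA replicate 2 called Hdac5 higher (adjusted p = 0.0260), beside 6.70% of the genes it gave an adjusted p. The list of lysine acetyltransferases also held Acly, the ATP citrate lyase, which makes their substrate acetyl-CoA. Of its 12 genes, 11 were tested and 0 passed in edgeR, with a median of 0.12 (0.11 without Acly). Crebbp, which encodes CBP, had a log2 fold change of 0.27 (adjusted p = 0.302) and Kat2a, which encodes GCN5, one of 0.23 (adjusted p = 0.312) in edgeR. Limma with sample quality weights called Crebbp, Kat2a and Acly higher and Kat2b lower (adjusted p of 0.0215, 0.0200, 0.0197 and 0.0306), beside 15.0% of all genes. Of the 11, 3 did not overlap between the groups (Crebbp, Kat2a and Acly, all higher after knockdown), beside 25.4% of all genes. Without Ctrl shRNA replicate 2, the medians were -0.02 for the zinc-dependent deacetylases and 0.02 for the acetyltransferase list (0.0077 without Acly), beside -0.11 for the sirtuins and -0.02 for all genes. At an unadjusted p under 0.05 with all samples, 1 deacetylase and 2 acetyltransferases of the 10 and 11 tested were higher, beside 7.47% of all genes.

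**Figure D5:**
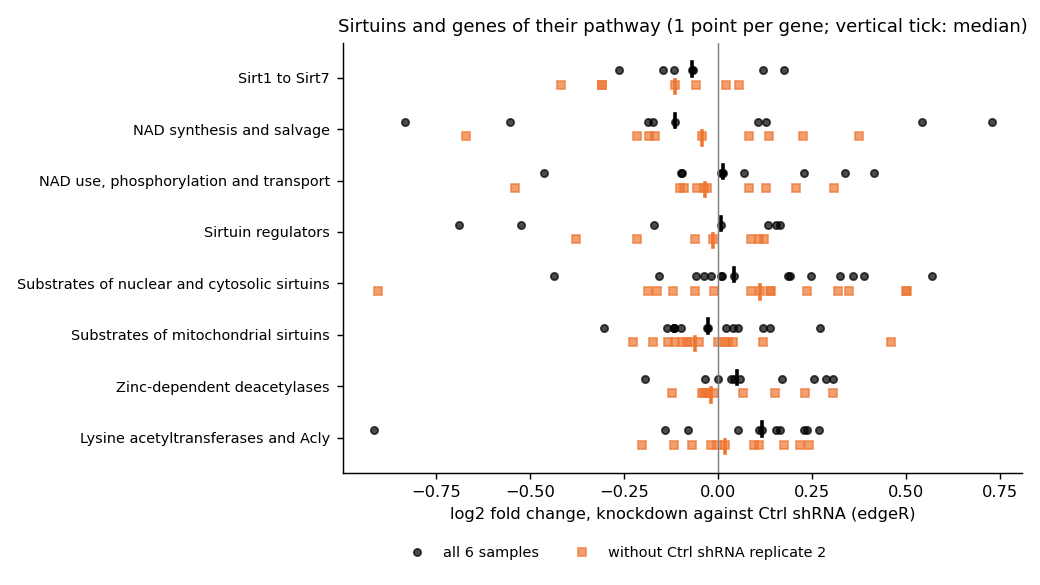
Log2 fold change, knockdown against Ctrl shRNA, of the sirtuin genes and of 7 lists of genes around them, with 1 point per gene and a vertical tick at the median, with all 6 samples (black) and without Ctrl shRNA replicate 2 (orange). The medians lie between -0.11 and 0.12 with all samples, and that of the sirtuins is -0.07.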

How the data were processed

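The authors deposited raw read counts per Ensembl gene and FPKM values, from paired-end libraries (NEBNext Ultra, Illumina HiSeq). The submitters' processing notes name HISAT2 2.0.5, StringTie 1.3.3b, featureCounts 1.5.0-p3 and mm10; the strand setting is not given in the sources used here. The deposited FPKM divide the counts by gene length and by a library size 0.716 to 1.08 times the total count.

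Counts were filtered with filterByExpr, scaled with TMM and tested in edgeR 4.0.16 (R 4.3.3, quasi-likelihood, no covariate), with Benjamini-Hochberg adjustment over 15307 genes (15709 without Ctrl shRNA replicate 2) and a threshold of 0.05. CPM use the same factors, correlations a prior count of 2. The alternatives used DESeq2 1.42.0 and limma 3.58.1. Of the context lists, genes called with all samples or without Ctrl shRNA replicate 2 were named, otherwise the 2 with the smallest p; also named were the knocked-down genes, genes overlapping a member and, for each member, the 2 protein-coding genes with the highest Pearson r. Some items are not reported here. Nampt, Parp1, Parp2, Nadk2, Nnt, Nmnat1 and Afmid were added after their values were seen. Members and lists were chosen with earlier results of these data known. All 3 replicates per group differed by more than sampling noise.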

Additional observations from a re-analysis of the deposited data

How the results depend on the processing

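Of 112 member values under 16 alternatives, 105 kept their direction and their side of the threshold, 6 changed sign and 1 passed the threshold. Of the 17 settings, 5 called 0 of all genes and 2 called 1, so the side of the threshold says nothing about the members there. Scaling by library size alone gave 0.072 for Sirt1, 0.096 for Sirt2 and 0.050 for Sirt5, while it moved the median of all genes from -0.01 to 0.16. Limma with sample quality weights gave -0.025 for Sirt7 and -0.48 for Sirt3, the 1 member called lower. That setting called 12 context genes higher (Acly, Crebbp, Hdac4, Hdac5, Kat2a, Nmnat3, Parp1, Ppif, Rela, Sarm1, Srebf1 and Trp53) and 3 lower (E2f1, Kat2b and Naprt). DESeq2 called 1 context gene higher (Trp53), edgeR without Ctrl shRNA replicate 2 called 1 (Trp53), and DESeq2 without that library, an alternative chosen after seeing the data, called 5 (Hdac5, Ppif, Rela, Srebf1 and Trp53). Kat2b, Ppif, Rela and Srebf1 were named after their values were seen. Leaving out 1 replicate at a time gave -0.19 to -0.02 for Sirt1, -0.12 to -0.02 for Sirt2, -0.42 to -0.12 for Sirt3, -0.31 to 0.0068 for Sirt4 (0.0068 without Ctrl shRNA replicate 1), -0.31 to 0.22 for Sirt5 (0.22 without Ctrl shRNA replicate 3), 0.06 to 0.24 for Sirt6 and 0.02 to 0.21 for Sirt7. It also gave 0 to 1 context genes called higher and left 0 of 14 similar genes without Ctrl shRNA replicate 2. The cause was not tested. Whether equal replicate numbers pair samples is not given in the labels. The r of same-numbered deviations was -0.15, -0.09 and 0.04, and deviations from means of 3 samples cannot decide this. The fit with the replicate number as a block called 0 members and 0 of all 15307 genes, with -0.24 for Sirt3. Over all genes, quality weights called 1327 higher and 971 lower, against 9 and 1 in edgeR. The biological coefficient of variation was 0.263 with all libraries and 0.102 without Ctrl shRNA replicate 2.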

Other observations

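Several genes of NAD+ synthesis from tryptophan had few counts in these cells, while Afmid (7.59 to 9.95 CPM), Nmnat1 (10.8 to 13.6 CPM) and Nadsyn1 (10.8 to 15.2 CPM) were present. Ido1, and Nmrk2 of nicotinamide riboside salvage, were at 0 counts in all 6 libraries, which allows up to 3 counts per library, or 0.0969 to 0.152 CPM. Qprt and Kynu had 1 count in 1 library each, Haao at most 5 counts and Kmo at most 10. The NAD+ hydrolase gene Cd38 and Nnmt, which methylates nicotinamide, were at 0 counts in every library. Parp1, which consumes NAD+, was at 157 to 198 CPM in the controls and 209 to 216 CPM in the knockdown samples (log2 fold change 0.23, adjusted p = 0.359, edgeR). Nnt, the NAD(P) transhydrogenase of mitochondria, was at 0.857 to 1.78 CPM, and a further row of the table with this name was at 0. Of the mitochondrial sirtuin substrates, the urea cycle genes Cps1 and Otc were at 0 counts in every library. These genes were chosen after their values were seen.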
